A study of Schmidtea mediterranea with 15 samples.

Results

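Regenerating trunk fragments 7 days after cutting were set against trunk fragments collected on the day of cutting, in the planarian flatworm Schmidtea mediterranea. The comparison used 6 of the 15 libraries of the study, chosen by the sample titles: 3 of day 7 fragments and 3 of day 0 fragments. The other 9 libraries, 3 each of day 3 fragments, day 5 fragments and whole juvenile animals, entered the estimate of the spread and are used below as points of reference. All animals were of the sexual biotype S2F2, and the labels name no altered gene and no agent. The labels give neither the animals' age, nor the sites of the cuts, nor whether a library came from 1 animal or a pool. P-values therefore reflect how far these libraries spread, and part of that spread may be technical.

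Planarians rebuild missing body parts from dividing stem cells called neoblasts, whose progeny form a new outgrowth at the wound while the old tissue is reshaped. A trunk fragment, as it is usually cut, lacks head and tail and makes both anew. Animals of the sexual biotype are hermaphrodites, with testes, ovaries and accessory glands that are known to shrink after amputation and to be built again as the animal regrows. Juveniles have not yet matured these organs.

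Poly(A) RNA was sequenced and reads were counted per sequence record. The files do not pair the records with gene names, so neither the named marker lists nor the tissue label could be checked, and records are called transcripts here although several can stand for 1 gene. Day 7 libraries held 45862344 to 50684775 counts each and day 0 libraries 20338464 to 34569921. Levels are in CPM, a count rescaled to a common library size. In whole fragments, fewer cells that hold a transcript and less of it per cell cannot be told apart.

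Day 7 fragments differed from day 0 fragments in 11163 of the 46736 transcripts tested (23.9%), and most of the calls were falls. In day 7 fragments 3676 transcripts rose (7.87%) and 7487 fell (16.0%), by edgeR's quasi-likelihood test with a Benjamini-Hochberg adjusted p under 0.05. At least 2-fold rises numbered 718 (1.54%) and at least 2-fold falls 4161 (8.90%), so falls made up 85.3% of the larger changes. Over all transcripts tested the median log2 fold change was 0.04, with 0.32 at the 75th percentile but -2.68 at the 5th percentile.

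The rises and the falls had different shapes. Rises were mostly small, with a median of 1.47-fold: 1916 were under 1.5-fold, 1042 between 1.5 and 2-fold, 635 between 2 and 4-fold, and 83 were larger. Falls had a median of 2.46-fold and formed 2 groups. A first group lay near no change, with 2441 falls under 1.5-fold. A second group lay far out, with 1318 falls between 4 and 8-fold, 1583 between 8 and 16-fold and 195 of 16-fold or more. Between them calls were fewer: 206 transcripts fell with a log2 fold change between -2 and -1.75, against 454 between -3.25 and -3.

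**Figure D1:**
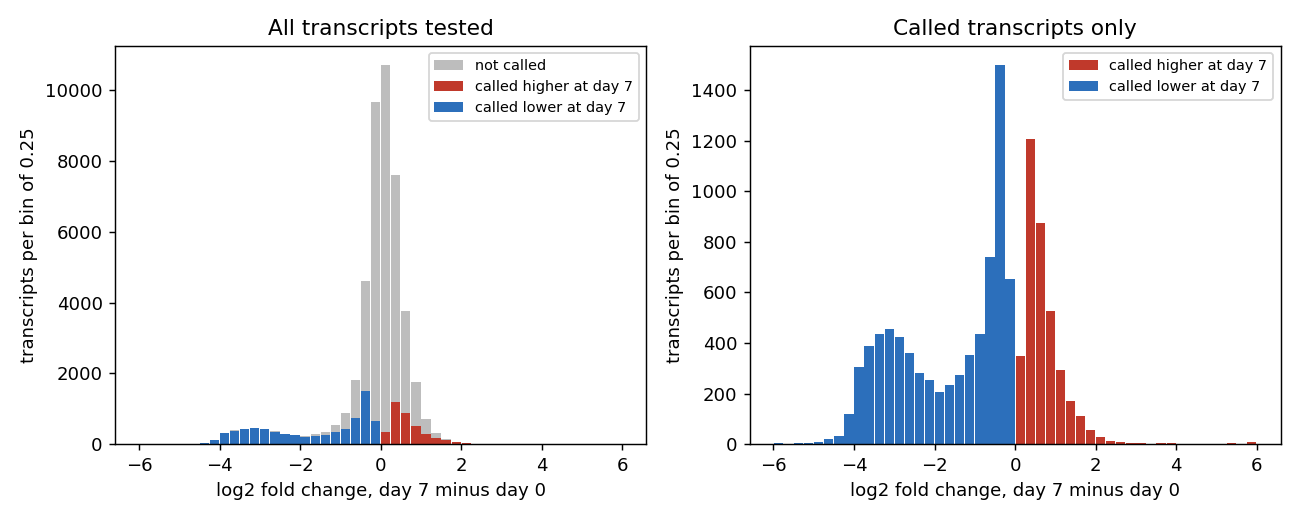
Number of transcripts (vertical axis) by log2 fold change of day 7 minus day 0 (horizontal axis, bins of 0.25, with all larger values in the outermost bins), for all 46736 transcripts tested (left) and the called ones only (right). Calls higher and calls lower at day 7 each have a peak near 0, at 1207 transcripts between 0.25 and 0.5 and 1499 between -0.5 and -0.25, and calls lower have another peak around a log2 fold change of -3.

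The 3326 transcripts that fell by less than 2-fold were abundant and steady. Their median level was 20.0 CPM at day 7 against 26.9 CPM at day 0, and 21.6 CPM at day 3, 21.9 CPM at day 5 and 19.7 CPM in juveniles. Together they took 17.1% ± 0.216 of the counts at day 7 and 20.2% ± 0.485 at day 0 (SD, n = 3 libraries each). These transcripts were chosen by the comparison itself, and the shares are given as a description.

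The 3096 transcripts that fell by at least 4-fold, chosen by the same comparison, behaved differently. Their median level was 0.696 CPM at day 7 against 6.06 CPM at day 0, with 2.19 CPM at day 3 and 2.39 CPM at day 5, and 0.146 CPM in juveniles. Their summed share was 1.52% ± 0.73 of the counts at day 7 and 10.9% ± 1.51 at day 0 (SD, n = 3 each), with 5.00% ± 1.37 at day 3, 3.91% ± 0.478 at day 5 and 0.212% ± 0.040 in juveniles. The 1065 transcripts in between, with falls of 2 to 4-fold, took 0.439% ± 0.0429 at day 7 and 1.03% ± 0.182 at day 0.

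The 2 falling transcripts with the largest loss in CPM were GDAG01027988.1 and GDAG01019209.1. They and the 2 rising ones below were taken by a rule: called, with day 7 and day 0 libraries that do not overlap, and with the largest difference in mean CPM. GDAG01027988.1 had 6523, 1430 and 2283 CPM in the day 7 libraries of replicates 1, 2 and 3, against 21013, 26771 and 16777 CPM in the day 0 libraries. The highest day 7 library was below the lowest day 0 library, and day 7 replicate 1 stood well above the other two. The log2 fold change was -2.66 (SE 0.53, edgeR adjusted p = 0.0064), a 6.31-fold fall. It held 0.338% of the counts at day 7 and 1.96% at day 0, where it ranked 3rd in abundance. This call did not pass when day 0 and day 7 libraries were fitted alone (log2 fold change -2.63, edgeR adjusted p = 0.085).

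GDAG01019209.1 had 2196, 637 and 823 CPM in the day 7 libraries, against 11633, 13791 and 10225 CPM in the day 0 libraries. Here too day 7 replicate 1 was the highest of its group, and the groups were far apart. The log2 fold change was -3.29 (SE 0.49, edgeR adjusted p = 0.0014), a 9.75-fold fall. It ranked 69th in abundance at day 7 and 5th at day 0. Both transcripts were far lower in juveniles, where GDAG01027988.1 had 35.9, 19.6 and 31.0 CPM and GDAG01019209.1 had 21.3, 9.32 and 17.0 CPM.

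Days 3 and 5 lay between the ends for both transcripts, in comparisons that use the same day 0 libraries. GDAG01027988.1 was at 12106, 7822 and 11207 CPM at day 3 and at 8911, 4826 and 6526 CPM at day 5. GDAG01019209.1 was at 5288, 3713 and 5054 CPM at day 3 and at 3240, 1831 and 2819 CPM at day 5. Against day 0 the log2 fold changes of GDAG01027988.1 were -1.05 at day 3 and -1.67 at day 5 (edgeR adjusted p = 0.22 and 0.075), and those of GDAG01019209.1 were -1.34 and -2.18 (edgeR adjusted p = 0.1 and 0.017). Over all transcripts tested, 8.50% were called at day 3 and 8.88% at day 5. Day 7 did not pass against day 5 for either transcript (edgeR adjusted p = 0.4 and 0.31), a comparison that called 0.800% of all transcripts.

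The 2 rising transcripts with the largest gain in CPM were GDAG01085608.1 and GDAG01030727.1. GDAG01085608.1 had 7534, 5508 and 5890 CPM in the day 7 libraries of replicates 1, 2 and 3, against 1574, 1628 and 1631 CPM in the day 0 libraries. The day 0 libraries were nearly alike and all day 7 libraries lay far above them. The log2 fold change was 1.97 (SE 0.35, edgeR adjusted p = 0.0034), a 3.92-fold rise. It ranked 6th in abundance at day 7 and 52nd at day 0. In juveniles, by contrast, it had 172, 69.3 and 232 CPM.

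GDAG01030727.1 had 7315, 4781 and 5832 CPM in the day 7 libraries, against 1321, 1739 and 1645 CPM in the day 0 libraries. The groups did not overlap, and day 7 replicate 1 was again the highest. The log2 fold change was 1.93 (SE 0.23, edgeR adjusted p = 0.00033), a 3.81-fold rise. Its juvenile libraries held 112, 64.6 and 103 CPM, all below the day 7 libraries (edgeR adjusted p = 4.8e-07), in a comparison of day 7 with juveniles that called 8.42% of all transcripts.

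For both named rising transcripts every day 3 library lay above every day 0 library, but only GDAG01030727.1 passed the test there. GDAG01030727.1 was at 3401, 4615 and 4126 CPM at day 3 and at 5067, 4441 and 3811 CPM at day 5, and passed the test against day 0 at both (edgeR adjusted p = 0.0058 and 0.0026). GDAG01085608.1 was at 3051, 3721 and 2721 CPM at day 3, where it did not pass (edgeR adjusted p = 0.1), and at 5197, 4404 and 4324 CPM at day 5, where it did (edgeR adjusted p = 0.02). Neither passed between day 5 and day 7 (edgeR adjusted p = 0.59 and 0.42).

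**Figure D2:**
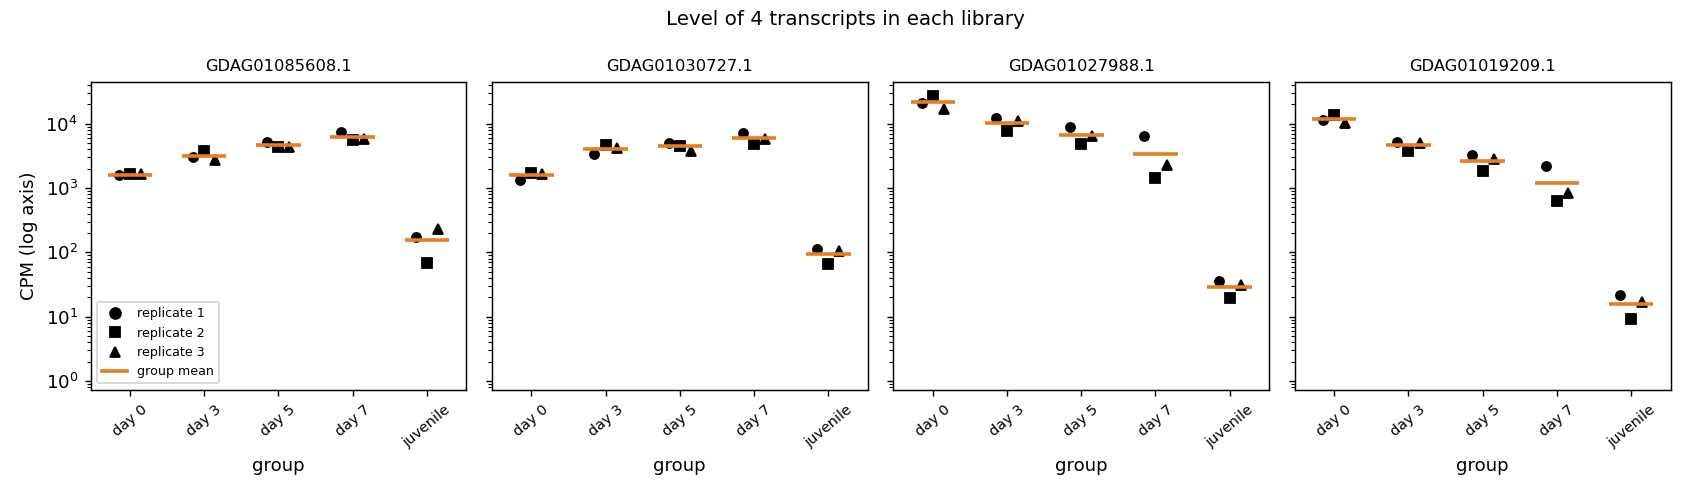
CPM (vertical log axis) of 2 rising and 2 falling transcripts in each library, by group (horizontal axis), with replicate numbers as symbols and group means as bars. The rising pair, GDAG01085608.1 and GDAG01030727.1, is highest at day 7 and far lower in juveniles, while the falling pair, GDAG01027988.1 and GDAG01019209.1, is lower at each later day and lowest in juveniles.

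The summed level of the 718 transcripts that rose at least 2-fold was 5.37%, 3.99% and 4.49% of the counts in the day 7 libraries, against 1.17%, 1.27% and 1.19% in the day 0 libraries. Every day 7 library held more than 3 times as much as any day 0 library, though few transcripts carry these shares: 10 members made up 84.8% of the sum at day 7. The members were chosen by this same comparison, so a gap between the groups was built in and is given as a description. The set was at 2.94% ± 0.362 at day 3, 3.54% ± 0.304 at day 5 and 0.371% ± 0.040 in juveniles (SD, n = 3 each). The median member was scarce, with 0.596 CPM at day 7 against 0.232 CPM at day 0, and 0.490 CPM in juveniles. Of the 718, 23 reached 100 CPM at day 7, and these alone took 4.38% ± 0.689 at day 7, 1.14% ± 0.057 at day 0 and 0.242% ± 0.0392 in juveniles.

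The 4161 transcripts that fell at least 2-fold took 2.60%, 1.12% and 2.16% of the counts in the day 7 libraries, against 10.4%, 11.9% and 13.7% in the day 0 libraries. Day 7 replicate 2 was the lowest of these libraries. Here too the members were chosen by the comparison itself, so the gap between the groups was built in. The 10 most abundant members made up 37.9% of the sum at day 7 and 44.9% of it at day 0. This was a smaller part than among the rises, but of a set with many more members.

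**Figure D3:**
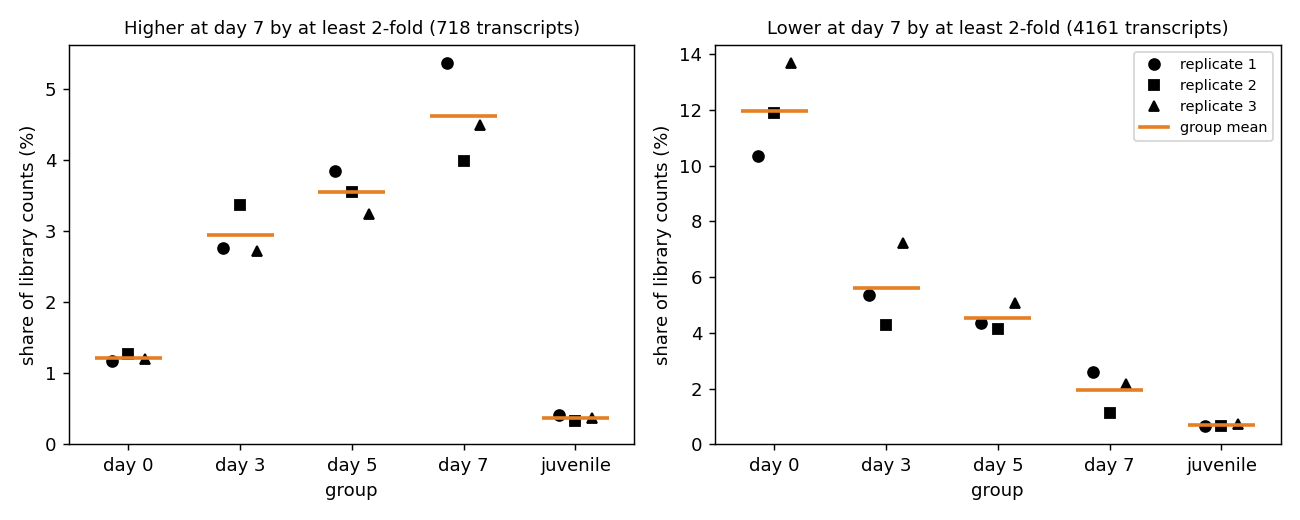
Share of each library's counts in percent (vertical axis) taken by the 718 transcripts higher (left) and the 4161 lower (right) at day 7 by at least 2-fold, by group (horizontal axis), with 1 symbol per library and bars for group means. The transcripts were chosen by the comparison of day 7 with day 0. Days 3 and 5 lie between the ends in both panels, and juveniles lie lowest in both.

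Calls were fewer, and standard errors larger, among scarce transcripts. Among 23057 transcripts with a mean of 0.1 to 1 CPM over the 6 libraries, 3.94% rose and 5.82% fell, with a median SE of 0.37 on the log2 scale. Among 8848 transcripts at 10 to 100 CPM, 11.8% rose and 32.8% fell, with a median SE of 0.08. Among the 90 transcripts at 1000 CPM or more, 18 rose and 23 fell, and 11 of these rises and 9 of these falls were at least 2-fold. Of the 4161 large falls, 1976 were among the 13229 transcripts tested at 1 to 10 CPM, 1249 among the 23057 at 0.1 to 1 CPM and 866 among the 8848 at 10 to 100 CPM.

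**Figure D4:**
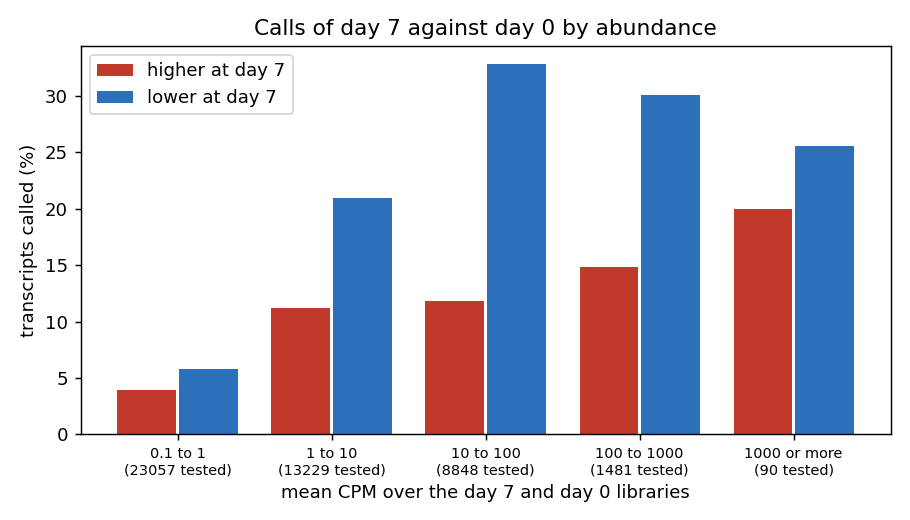
Percent of transcripts called higher or lower at day 7 than at day 0 (vertical axis) by mean CPM over the 6 libraries (horizontal axis, with the number tested), leaving out the 31 transcripts under 0.1 CPM. Falls outnumber rises in every class shown, by the widest margin at 10 to 100 CPM.

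Ranks at the top of the abundance scale overlapped between the groups, while many of these transcripts changed in level. Of the 100 most abundant transcripts at day 7, 82 were also among the 100 most abundant at day 0, and of the top 1000 at day 7, 881 were among the top 1000 at day 0. Of the 100 most abundant over the 6 libraries, 20 rose and 24 fell in day 7 fragments, and 11 of these rises and 9 of these falls were at least 2-fold. The 100 most abundant transcripts of each library took 33.7% to 35.6% of its counts at day 7 and 31.5% to 34.8% at day 0. A part of the transcripts that were not called can be bounded: of 35573, 22288 (62.7%) had a 95% interval of the log2 fold change that lay within 2-fold either way. For 13285 the interval reached 2-fold or more, so a change of that size was not excluded at this depth and spread.

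Complete losses were rare. After random thinning of every library to the smallest total, day 7 libraries held 74255 to 76211 records with at least 1 count and day 0 libraries 74074 to 75276. On thinned counts, 527 records were seen in every day 7 library and in no day 0 library, and 572 in every day 0 library and in no day 7 library. With at least 10 counts asked of every library in which a record was seen, these numbers were 3 and 0. On counts as deposited, 7 records had no count at day 0 and at least 10 in every day 7 library.

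Those 7 had 613 of the 145116209 counts of the day 7 libraries and 0 of the 89434977 counts of the day 0 libraries. Set against a floor of 3 counts over the day 0 group, which covers counting error only, they were at least 9.45-fold to at least 33.5-fold higher at day 7. For 6 of them, day 3 libraries together held 0 to 6 counts, day 5 libraries 20 to 97, day 7 libraries 52 to 163 and juvenile libraries 47 to 526. For the other, day 3 libraries held 32 counts, day 5 libraries 29, day 7 libraries 46 and juvenile libraries 2. Juvenile libraries were shallower, with 25735815 to 37791352 counts each, than those of day 3 (36859187 to 52422628) and day 5 (36927291 to 59034917). They were chosen as absent at day 0, and the same 6 were called higher at day 7, while the other did not pass the filter on low counts.

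The libraries of 1 group did not fall alike. For the 4161 transcripts that fell at least 2-fold, day 7 replicate 3 was the highest of its group for 3324 (79.9%) and day 7 replicate 2 the lowest for 3264 (78.4%). At day 0, replicate 3 was the highest for 3483 (83.7%). Over all transcripts tested these shares were 33.4%, 33.0% and 40.2%. The median member lay 0.83 above the mean of the day 7 group in replicate 3 and 0.82 below it in replicate 2, on the log2 CPM scale, while in day 0 replicate 3 it lay 0.94 above the mean of its group. For the 718 transcripts that rose at least 2-fold, these medians lay close to the group mean in all 6 libraries, the farthest at 0.044 above it in day 0 replicate 2.

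**Figure D5:**
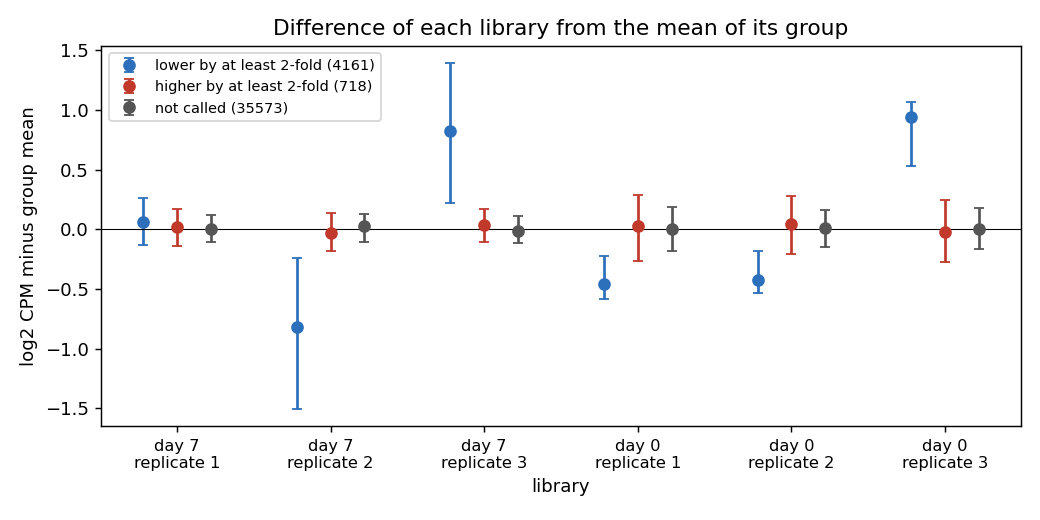
Log2 CPM of each library minus the mean of its group (vertical axis) in the 3 day 7 and 3 day 0 libraries (horizontal axis), as the median (points) and quartiles (bars) over transcripts lower by at least 2-fold, higher by at least 2-fold, and not called. Over the lower transcripts day 7 replicate 3 and day 0 replicate 3 lie high and day 7 replicate 2 lies low, while the other sets lie near 0 in every library.

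The transcripts that fell at least 2-fold were split in 3 parts by which day 7 library held the most of them. The parts were set beside libraries of other days, which the split did not use. Day 0 libraries had, however, been used to call these transcripts. For the 3324 with the most in day 7 replicate 3, replicate 3 was also the highest day 0 library for 94.3%. It was the highest day 3 library for 92.9%, the highest day 5 library for 69.8% and the highest juvenile library for 45.3%. Replicate 3 was the highest day 0 library for 40.2% of all transcripts tested and for 83.7% of the 4161 before the split. Shares over all transcripts were not computed for days 3 and 5 and juveniles, so values of those groups have no such reference. For the 560 with the most in day 7 replicate 1, among them both named falling transcripts, replicate 3 was the highest day 0 library for 41.4% and the highest day 3 library for 57.7%. For the 277 with the most in day 7 replicate 2, these shares were 41.9% at day 0 and 43.7% at day 3. The 3324 took 0.628%, 0.418% and 1.21% of the counts in day 7 replicates 1, 2 and 3, against 3.35%, 3.46% and 7.96% in day 0 replicates 1, 2 and 3. The 560 took 1.86%, 0.556% and 0.822% at day 7, against 6.55%, 7.90% and 5.25% at day 0. The 277 took 0.111%, 0.144% and 0.128% at day 7, against 0.457%, 0.539% and 0.483% at day 0. In all 3 parts the day 7 and day 0 libraries did not overlap in their summed share, and no test is given since the members were called by the same comparison.

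The groups did not overlap for 3600 of the 3676 rises (97.9%) and 7276 of the 7487 falls (97.2%). Over all transcripts tested, day 7 lay above day 0 in every library for 17.6% and below it for 20.7%, so such separation alone was frequent. A stricter reading asked for at least a 2-fold difference in each of the 9 pairs of a day 7 and a day 0 library. It was met by 2357 of the 4161 large falls (56.6%) and 114 of the 718 large rises (15.9%). The share over all transcripts was not computed. A prior count of 2 was added, which shrinks the folds of scarce transcripts. The median large rise had 0.232 CPM at day 0 and the median large fall 4.94 CPM, and the part of abundance in these shares was not tested. For the median large fall, the highest day 7 library lay 2.20-fold below the lowest day 0 library.

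Single libraries moved the number of falls. Without day 7 replicate 1, 4105 transcripts fell and 2405 rose, and without day 0 replicate 3, 4573 fell and 2458 rose, against 7487 and 3676 with all libraries. Falls of at least 2-fold were 2089 and 1970 in these fits, against 4161. With replicate 3 of day 7 and of day 0 both left out, 5642 fell and 2112 rose, and with day 7 and day 0 libraries fitted alone 2984 fell and 2178 rose. A test against a 2-fold change, edgeR's glmTreat, passed 502 falls and 38 rises. Calls made with all libraries and again in each of the 6 fits that leave out 1 day 7 or day 0 library numbered 1513 rises (41.2%) and 3372 falls (45.0%), of which 289 and 1660 were at least 2-fold. These stable falls had a median level of 6.82 CPM at day 7 and 16.1 CPM at day 0. The 4115 falls lost in at least 1 of these fits had a median of 1.69 CPM at day 7 and 8.95 CPM at day 0. Among falls of 8 to 16-fold 29.9% were stable, against 61.2% of those of 1.5 to 2-fold and 69.7% of those of 16-fold or more. All 4 named transcripts passed in each of these 6 fits.

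To describe the change with transcripts chosen in other libraries, sets were taken from a fit of day 3, day 5 and juvenile libraries alone, which holds no day 7 and no day 0 library. In that fit 2561 of 44426 transcripts (5.76%) were at least 4-fold above juveniles at days 3 and 5, and 69 (0.155%) were at least 4-fold below. Of the 2561, 2403 fell (93.8%) and 72 rose (2.81%) in day 7 fragments, beside 16.0% and 7.87% of all transcripts tested. Their median log2 fold change was -3.16, with quartiles of -3.59 and -2.73, against 0.04 over all transcripts. Leaving out day 7 replicate 1 brought the falls to 946, leaving out day 0 replicate 3 to 1128, and fitting day 7 and day 0 libraries alone to 525. Except in the last of these fits, the libraries that chose the sets also entered the estimate of the spread behind the calls. The numbers of calls are therefore not independent of that choice.

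The 72 that rose held more counts at day 7 than the 2403 that fell. They took 4.25% ± 0.735 at day 7 and 1.11% ± 0.0552 at day 0. The 2403 took 1.45% ± 0.709 at day 7 and 10.6% ± 1.37 at day 0 (SD, n = 3 each). Both parts were sorted by their call in this comparison, so the direction of each gap was built in. All 2561, which were not sorted so, took 5.82% ± 1.44 at day 7 and 11.8% ± 1.38 at day 0. In juveniles the 72 took 0.157% ± 0.0343 and the 2403 took 0.115% ± 0.0196.

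The 69 transcripts below juveniles were divided: 20 rose (29.0%), 16 fell (23.2%) and 33 were not called in day 7 fragments, and their median log2 fold change was 0.11. The 20 took 0.00248% ± 0.000656 of the counts at day 7 and 0.000285% ± 3.47e-05 at day 0, with 0.0121% ± 0.00236 in juvenile libraries. The 16 took 0.00521% ± 0.00102 at day 7 and 0.0142% ± 0.000538 at day 0, with 0.0226% ± 0.0038 in juvenile libraries. Here too the parts were sorted by their call, so the direction of each gap was built in. All 69 took 0.0753% ± 0.0217 at day 7 and 0.0912% ± 0.013 at day 0. The split depended on the bound of the set. At a bound of 2-fold, 68 of 556 rose (12.2%) and 55 fell (9.89%), with a median log2 fold change of 0.14. At 8-fold, 15 of 27 rose (55.6%) and 3 fell (11.1%), with a median of 2.77.

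Records that carry identifiers of another kind than the main assembly were few. Of 513 tested, 87 rose (17.0%) and 106 fell (20.7%) in day 7 fragments, and 12 and 33 did so by at least 2-fold, beside 7.76% and 16.0% of the 46223 assembly records. Their median level was 11.6 CPM, against 1.01 CPM for assembly records, and the part of abundance in these shares was not tested.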

How the data were processed

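The authors deposited a table of raw counts (whole numbers with totals that differ between libraries) of reads per sequence record. Per the labels' protocols, TRIzol was used for extraction and a TruSeq RNA kit for the libraries; the kit does not mark strand, so transcripts that overlap on opposite strands are not separated. Bowtie2 was used, per the submitters' processing notes. The sequence set, counting tool, filters and handling of reads shared by similar records were not given in the sources used here. Identifiers could not be paired with gene names, so the gene lists written for this comparison were not tested. Of 92053 records, 46736 passed filterByExpr (minimum count 10, minimum total 15). They were scaled by TMM and entered edgeR 4.0.16 (R 4.3.3): 1 robust quasi-likelihood fit of all 15 libraries, group as the only term, 10 residual degrees of freedom. SEs are the log2 fold change over the root of its F. CPM use TMM-scaled totals; shares use total counts. DESeq2 1.42.0 was an alternative. In simulated counts for day 7 minus day 0 over 45755 records, 37 of 100 changes of 2-fold and 79 of 100 of 4-fold were recovered, with 7 of 123 calls false. Only these records were changed, and each record was drawn independently. The real libraries deviated together over the large falls, so these rates may not hold for the reported calls. The members, lists, rules and alternatives were chosen with earlier results of these data known. The rule for named transcripts took the 2 rising and 2 falling records with the largest difference in mean CPM among those called without overlap, passing over records within 10% of one already taken.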

Additional observations from a re-analysis of the deposited data

How the results depend on the processing

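Counts kept within 1.5 times of the reported ones with RLE size factors, without the low-count filter, with DESeq2, with libraries thinned to the smallest total and with identical records removed, and calls shared with the reported fit kept their direction in each alternative fit. Fitting day 0 and day 7 libraries only, with fewer samples to estimate the spread, gave 2178 higher and 2984 lower transcripts, 422 and 1246 of them by at least 2-fold, 525 lower transcripts of the set above juveniles, and falls in 57.8% of calls against 67.1%. Leaving out 1 library at a time gave 2405 to 2990 higher, 4105 to 7543 lower, 534 to 765 higher and 1970 to 4462 lower by at least 2-fold, 946 to 2399 lower in the set above juveniles and 17 to 21 higher in the set below them. A fit without 3 libraries seen to stand apart in these data (replicate 2 of day 7 and replicates 3 of days 3 and 0) gave 2076 higher and 6191 lower. One without replicates 3 of days 7 and 0, also a choice made after seeing the data, gave 2112 higher and 5642 lower. A test against a 2-fold change (glmTreat) called 38 higher and 502 lower. A 2-fold bound for the set below juveniles gave 68 higher. The causes of these shifts were not tested. With the replicate block, 3635 were higher and 7775 lower. Same-numbered day 7 and day 0 libraries correlated at -0.0176, 0.266 and 0.475 in their deviations. Day 7 replicate 2 also correlated at 0.266 with day 0 replicate 1. Day 7 replicate 3 correlated at -0.274 and -0.279 with day 0 replicates 1 and 2. Deviations within a group are tied to each other, so these values cannot decide whether the numbers pair the samples. Of 60 alternative values of the named transcripts, 59 kept their call and direction. Day 0 libraries were the shallower ones, which limits what can be said of scarce transcripts.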
